A study of Mus musculus with 2 samples.

Results

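The 4 mouse Akr1b genes (Akr1b7, Akr1b3, Akr1b8 and Akr1b10) and the related gene Akr1a1 were followed in long-read RNA sequencing of the adrenal gland. A read was counted for a gene when its transcript model was assigned to an annotated gene of that symbol. By this rule 5 genes of the 16745 annotated genes with a read were taken. They held 136 of 98236 transcript models in replicate 1 and 66 of 86472 in replicate 2. The series holds 1 group of 2 libraries from wild-type C57BL/6J adrenal tissue, numbered as biological replicates 1 and 2, with no treatment, genotype or time to compare. The libraries come from separate biosamples that share 1 donor entry. One label describes the tissue as male, the sex field was not filled in, and the age is unknown. P-values therefore measure the difference between these libraries, which may be technical, and not between conditions.

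Aldo-keto reductases are soluble enzymes that use NADPH to reduce aldehydes and ketones to alcohols. In the adrenal cortex, the side-chain cleavage of cholesterol that begins steroid synthesis releases isocaproaldehyde, and Akr1b7 is known as the enzyme that reduces it in the mouse. Akr1b3 is aldose reductase, which turns glucose into sorbitol at the start of the polyol pathway. Akr1b8 is an aldose reductase-like enzyme first described as a gene induced by fibroblast growth factor, and Akr1b10 is another aldose reductase-like member of the group. Akr1a1 is aldehyde reductase, which in the mouse also supplies gulonate for the synthesis of ascorbate.

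Replicate 1 held 848782 reads and replicate 2 held 545229, so that a single read was worth 1.18 CPM (the usual scaling of counts to library depth) in replicate 1 and 1.83 CPM in replicate 2. Replicate 1 read shorter transcripts. The known transcripts to which reads were assigned had a median length, counted per read, of 1648 bases there and 2740 bases in replicate 2. These are lengths of transcripts and not of single reads. Of the reads of known transcripts, 44.0% in replicate 1 and 5.47% in replicate 2 were assigned to transcripts under 1500 bases. All 5 genes have main transcripts under that length. The markers of the fasciculata and shared cortex (6 of 6 read) summed to 31796 CPM in replicate 1 and 65732 CPM in replicate 2, and those of the glomerulosa (2 of 2) to 196 and 2382 CPM. Chromaffin markers (5 of 5) summed to 10093 CPM in replicate 1 and 23122 CPM in replicate 2, with Th and Pnmt higher and Dbh, Chga and Chgb lower in replicate 1. The endothelial markers summed to 180.3 CPM in replicate 1 and 809 CPM in replicate 2, the stromal to 416 and 213, the macrophage to 723 and 191, and the adipocyte to 201 and 42.2. Some sums hide members that went the other way. Mc2r was higher in replicate 1, unlike the rest of the cortex list. Col1a1 and Col1a2 were lower in replicate 1 while Dcn was higher, and Adgre1 was lower while Lyz2 and Cd68 were higher. The part of cell makeup in the differences between the libraries was not tested. Of the kidney markers, 3 of 4 were at 0 in both libraries and the summed list had 1 read in replicate 1 and 0 in replicate 2. The liver markers (Alb and Apoa1) were at 0. The intestinal marker Vil1 had 55 reads in replicate 1, none of them of a known transcript, and 0 in replicate 2, with Fabp2 at 0.

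The 4 Akr1b genes lie side by side on chromosome 6 within 120.709 kb of the mm10 genome, in the annotation of GENCODE M21. Akr1b3 (ENSMUSG00000001642.18, chr6:34302434-34317478) is on the minus strand. Akr1b8 (ENSMUSG00000029762.6, chr6:34354119-34368463), Akr1b10 (ENSMUSG00000061758.13, chr6:34384218-34396950) and Akr1b7 (ENSMUSG00000052131.7, chr6:34412334-34423142) follow in this order on the plus strand, with gaps of 36.64, 15.754 and 15.383 kb. Akr1a1 (ENSMUSG00000028692.14) lies apart on the minus strand, at chr4:116636510-116651680. The main transcript of each Akr1b gene has 10 exons and a coding sequence of 948 bases, and exons 2 to 9 have the same lengths in all 4 genes. The main transcript of Akr1a1 has 9 exons and a coding sequence of 975 bases. Between coding sequences, identity was 89.2% for Akr1b7 and Akr1b10, 84.8% for Akr1b7 and Akr1b8, and 84.7% for Akr1b8 and Akr1b10. Akr1b3 shared 70.9% to 72.0% of aligned positions with the other Akr1b genes, and Akr1a1 shared 56.1% to 57.6% with the Akr1b genes. The longest run of identical coding bases was 80, between Akr1b8 and Akr1b10, against 59 between Akr1b7 and Akr1b10. How the authors' assignment treated reads that could come from either gene is not known, so a read with no distinguishing position is uncertain between these genes.

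The upstream sequences of the 3 neighbours on the plus strand are shown because these genes stand next to each other and Akr1b7 is read far more than Akr1b10 and Akr1b8. The counting intervals of Akr1b10 and Akr1b8 overlap within each library. Each is the stretch of 200 bases that ends 22 to 24 bases before the annotated GENCODE start, from RefSeq on build GRCm38.p6, 5′ to 3′ on the plus strand. Capitals mark matches to AAGGTCA or its reverse complement TGACCTT, the recognition motif of NR5A factors such as steroidogenic factor, a regulator of adrenal genes.
Akr1b7, chr6:34412112-34412311: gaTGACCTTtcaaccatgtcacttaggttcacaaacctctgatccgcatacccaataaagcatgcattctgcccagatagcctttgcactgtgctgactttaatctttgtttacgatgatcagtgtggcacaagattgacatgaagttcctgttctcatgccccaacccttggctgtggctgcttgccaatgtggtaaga
Akr1b10, chr6:34383997-34384196: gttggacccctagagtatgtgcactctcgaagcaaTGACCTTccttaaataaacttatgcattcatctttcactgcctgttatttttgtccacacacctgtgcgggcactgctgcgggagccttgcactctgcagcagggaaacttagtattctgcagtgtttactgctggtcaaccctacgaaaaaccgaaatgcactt
Akr1b8, chr6:34353896-34354095: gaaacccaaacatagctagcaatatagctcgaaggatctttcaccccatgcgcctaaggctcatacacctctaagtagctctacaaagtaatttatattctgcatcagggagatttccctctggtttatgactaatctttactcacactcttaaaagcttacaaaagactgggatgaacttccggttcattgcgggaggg
On both strands, the motif was found once in the Akr1b7 window and once in the Akr1b10 window, and these letters were not in the Akr1b8 window or in the Akr1a1 window of the same size. Of 27025 promoter windows of 200 bases, 3.34% held the motif. The letters CCAAT occurred in the Akr1b7 window at 2 places and in 28.9% of all windows, and TATAAA occurred on the opposite strand of the Akr1b8 window and in 9.48% of all windows. The cAMP response element TGACGTCA was in none of these 4 windows and in 0.862% of all windows. A match describes the letters and does not show binding.

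Akr1b7 was by far the most read of the 5 genes. It had 6029 reads in replicate 1 and 1386 in replicate 2, which is 7103 CPM (95% Poisson interval 6925 to 7285) and 2542 CPM (2410 to 2679). It was the gene with rank 8 by reads in replicate 1 and rank 27 in replicate 2, and averaged 4823 ± 3225 CPM (SD, n = 2). Akr1a1 had 1135 reads in replicate 1 and 153 in replicate 2, or 1337 CPM (1261 to 1417) and 281 CPM (238 to 329), with a mean of 809 ± 747 CPM. Akr1b3 had 681 reads in replicate 1 and 82 in replicate 2, or 802 CPM (743 to 865) and 150.4 CPM (119.6 to 187), with a mean of 476 ± 461 CPM. Each was higher in replicate 1, with counting intervals that did not overlap between the libraries. Differences between the libraries were common, as 64.4% of all 9879 tested genes were called in the test below. Of tested genes with transcripts of 1200 to 1500 bases, 73.8% were called higher in replicate 1.

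Akr1b10 and Akr1b8 were the least read. Akr1b10 had 327 reads in replicate 1 and 30 in replicate 2, or 385 CPM (345 to 429) and 55.02 CPM (37.1 to 78.5), with a mean of 220.1 ± 234 CPM. Akr1b8 had 312 reads in replicate 1 and 17 in replicate 2, or 368 CPM (328 to 411) and 31.2 CPM (18.2 to 49.9), with a mean of 199 ± 238 CPM. Per kilobase of transcript the order was the same in both libraries. In replicate 1, Akr1b7 stood at 5545 CPM per kilobase, Akr1a1 at 942, Akr1b3 at 578, Akr1b10 at 281 and Akr1b8 at 271. In replicate 2, the same scale gave 1984 for Akr1b7, 198 for Akr1a1, 108.4 for Akr1b3, 40.1 for Akr1b10 and 23.0 for Akr1b8. Within a library, the counting intervals of Akr1b10 and Akr1b8 overlapped and those of the other neighbours in this order did not. Over both libraries, the ranges of Akr1a1, Akr1b3, Akr1b10 and Akr1b8 overlapped each other, so only Akr1b7 stood apart by more than the spread between libraries. In a whole gland, fewer cells of a type and less RNA per cell cannot be told apart.

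**Figure D1:**
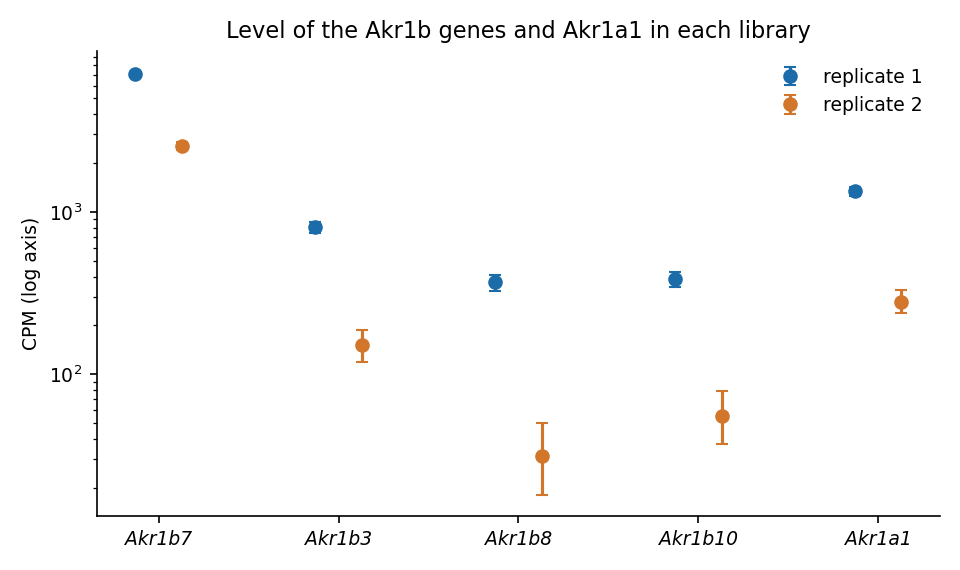
Level of each gene in CPM on a log axis, with replicate 1 in blue to the left of replicate 2 in orange and bars for the exact 95% Poisson interval. Akr1b7 is highest in both libraries, at 7103 and 2542 CPM, and every gene is higher in replicate 1.

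Together the 5 genes took 8484 reads in replicate 1 and 1668 in replicate 2, or 1.00% (95% Clopper-Pearson interval 0.978% to 1.02%) and 0.306% (0.291% to 0.321%) of all reads. Akr1b7 alone made up 71.1% of the family in replicate 1 (70.1% to 72.0%) and 83.1% in replicate 2 (81.2% to 84.9%). The share of Akr1a1 was 13.4% in replicate 1 and 9.17% in replicate 2. Akr1b3 gave 8.03% in replicate 1 and 4.92% in replicate 2. Akr1b10 gave 3.85% and 1.80%, and Akr1b8 gave 3.68% and 1.02%, again in replicate 1 and in replicate 2. Akr1b7 was thus the most read member in each library, with 2.46 reads for every read of the other 4 genes together in replicate 1 and 4.91 in replicate 2.

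All 5 genes were higher in replicate 1 than in replicate 2 when the reads of a gene were set against the remaining reads of its library (Fisher's exact test, two-sided). P-values were adjusted by Benjamini and Hochberg's method over the 9879 genes with at least 10 reads. Of all tested genes, 64.4% were called, 27.9% higher and 36.6% lower in replicate 1. The higher ones were 43.2% of the calls, a share that became 55.0% with TMM scaling and 55.2% with DESeq2 size factors, under which all 5 genes remained higher in replicate 1. Akr1b8 differed most, 11.8-fold (95% interval 7.24 to 20.5, adjusted p = 2.69e-45 by Fisher's exact test). Akr1b10 was 7.00-fold higher (4.81 to 10.5, adjusted p = 2.58e-38, exact), Akr1b3 5.33-fold (4.24 to 6.79, adjusted p = 2.15e-67, exact) and Akr1a1 4.77-fold (4.02 to 5.68, adjusted p = 3.15e-103, exact). Akr1b7 differed least, 2.79-fold (2.64 to 2.96), with an adjusted p below the smallest value that the arithmetic holds.

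Genes of the same length differed between the libraries in the same direction. Of the 656 tested genes with transcripts of 1200 to 1500 bases, 73.8% were called higher in replicate 1, and their median log2 ratio was 2.21, where the median over all tested genes was -0.38. Log2 ratios are of CPM + 1, replicate 1 over replicate 2. The running median over genes ordered by length stood at 2.37 at the length of Akr1b7, where Akr1b7 itself had 1.48. Relative to this length trend, Akr1b7 was lower in replicate 1 by a log2 difference of -0.89 (adjusted p = 4.23e-82, exact binomial test), the opposite direction to its ratio on total reads. Akr1b8 remained higher by 1.35 (adjusted p = 6.20e-05, exact binomial) and Akr1b10 by 0.67 (adjusted p = 0.0246, exact binomial). Akr1b3 and Akr1a1 stood 0.37 and 0.21 above the trend and did not pass (adjusted p = 0.0546 and 0.155, exact binomial). Calls against the trend were common, with 41.3% of 9166 tested genes called and 21.3% called higher in replicate 1. The test measures counting error around the running median and not the spread of genes around it. Counted on annotated transcripts alone and set against the trend of such reads, Akr1b7 stood at -0.96, Akr1b8 remained called at 0.84 (adjusted p = 0.0331, exact binomial) and Akr1b10, at 0.27, did not pass (adjusted p = 0.521, exact binomial). In this setting 38.3% of 7302 tested genes were called, and 21.1% were called higher in replicate 1. The part of length in the differences was not tested beyond these values.

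**Figure D2:**
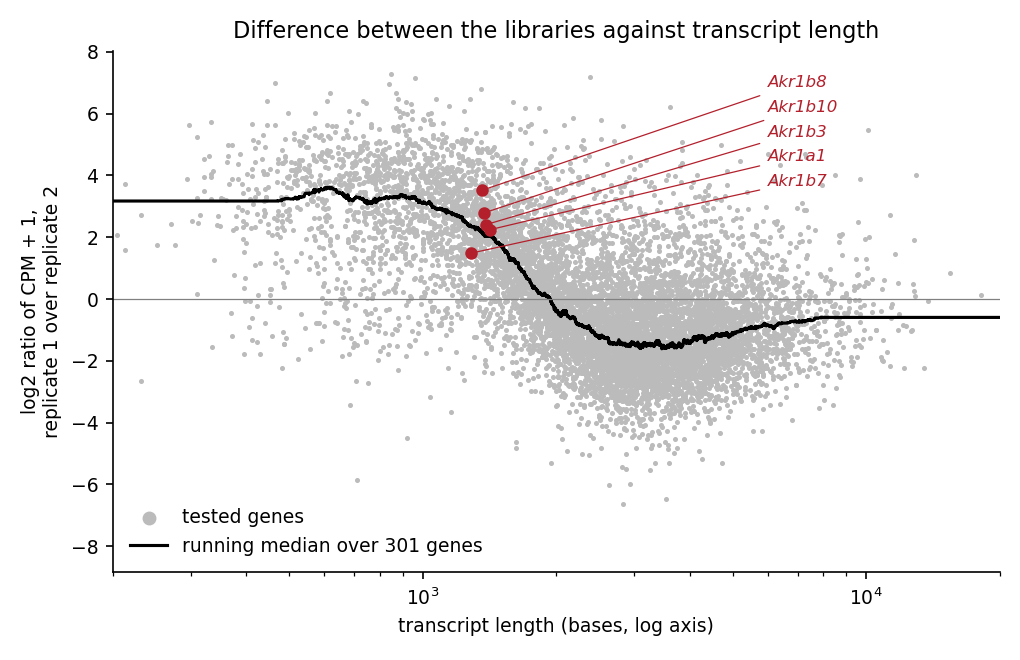
Each grey point is a tested gene, with transcript length in bases on a log axis and the log2 ratio of CPM + 1, replicate 1 over replicate 2, on the vertical axis; the black line is the running median over genes ordered by length and the 5 genes are in red. All 5 lie above 0, with Akr1b7 at 1.48 below the line and Akr1b8 at 3.52 farthest above it.

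The other aldo-keto reductases were mostly unread. Of 12 genes listed, 7 were at 0 in both libraries, among them Akr1c18, the hydroxysteroid dehydrogenase that inactivates progesterone and marks the X-zone of the mouse adrenal. A count of 0 allows up to 3 reads, which is 3.53 CPM in replicate 1 and 5.50 CPM in replicate 2. All 3 tested genes of the list were higher in replicate 1, against 27.9% of all tested genes. Akr1cl, an aldo-keto reductase-like gene, had 2672 reads in replicate 1 and 282 in replicate 2, a 6.09-fold difference (adjusted p = 1.22e-286, Fisher's exact test). Per kilobase, 1788 CPM in replicate 1 and 294 in replicate 2 placed it between Akr1b7 and Akr1a1 in both libraries. Akr7a5, an aldehyde reductase, had 124 reads in replicate 1 and 12 in replicate 2, and Akr1e1, which reduces anhydrofructose, had 57 and 8. Akr1c13 had 5 reads in replicate 1 and 2 in replicate 2, and Akr1c14 had 0 and 2.

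Enzymes of aldehyde, polyol and related pathways were called in both directions. Of 20 aldehyde and polyol enzymes, 17 had enough reads to test. In replicate 1, 7 of them were higher and 6 lower than in replicate 2, and the other 4 missed the threshold. These are 41.2% higher and 35.3% lower, against 27.9% and 36.6% of all tested genes. The 6 lower genes have transcripts of 2053 to 3867 bases, and of the higher ones 5 have 1087 to 1604 bases, while Cbr4 and Glo1 have 4309 and 9865. The part of length in this split was not tested. Their median log2 ratio was -0.53, near the -0.38 of all tested genes. Sord, the sorbitol dehydrogenase that follows aldose reductase in the polyol pathway, had 28 reads in replicate 1 and 112 in replicate 2 (33.0 and 205 CPM, adjusted p = 8.22e-22 by Fisher's exact test). Aldh1a1, a cytosolic aldehyde dehydrogenase, had 141 reads in replicate 1 and 807 in replicate 2, and the mitochondrial Aldh2 had 186 and 653. Both were lower in replicate 1. Adh1, an alcohol dehydrogenase, had 679 reads in replicate 1 and 68 in replicate 2, and Khk, the ketohexokinase that takes up the fructose made by Sord, had 51 and 2. These were higher in replicate 1. Gulo, which makes ascorbate from the product of the Akr1a1 branch, had 8 reads in replicate 1 and 11 in replicate 2, or 4.16 and 8.92 CPM per kilobase, and did not pass (adjusted p = 0.142, Fisher's exact test). Akr1a1 stood far above it on this scale. Of the side-chain cleavage genes, Cyp11a1, the enzyme that cuts the side chain, had 8120 CPM in replicate 1 and 10190 CPM in replicate 2. Star, which brings cholesterol into mitochondria, had 14093 CPM in replicate 1 and 28309 CPM in replicate 2. Fdxr, the ferredoxin reductase that passes electrons to ferredoxin, had 1269 CPM in replicate 1 and 2755 CPM in replicate 2. Fdx1, the ferredoxin that supplies the side-chain cleavage enzyme, went the other way on total reads, from a transcript of 875 bases. It had 1959 CPM in replicate 1 and 603 CPM in replicate 2 (adjusted p = 6.05e-105, Fisher's exact test). Relative to the length trend, the log2 difference was -1.58 for Fdx1 and -1.03 for Fdxr, and 0.34 for Star and 0.23 for Cyp11a1. By CPM, Akr1b7 was below Cyp11a1 in replicate 1 (7103 against 8120) and in replicate 2 (2542 against 10190). Division by transcript length, 1281 bases for Akr1b7 and 2120 for Cyp11a1, changed this order in replicate 1 alone. Per kilobase, Akr1b7 was above Cyp11a1 in replicate 1 (5545 against 3830 CPM per kilobase) and below it in replicate 2 (1984 against 4807).

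By Euclidean distance of log2(CPM + 1) over the 2 libraries, the genes whose levels were most like those of Akr1b7 were Hsp90ab1 (distance 0.54), Hsd3b1 (1.11) and Scg2 (1.22). The nearest to Akr1a1 was Rplp0 (0.18), to Akr1b3 Tmem176b (0.07), to Akr1b8 C1qbp (0.08) and to Akr1b10 Ptov1 (0.04). With 2 libraries this likeness reflects level and the difference between libraries alone.

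The reads also give the structure of each transcript. In the authors' classes, a known model has all splice junctions of an annotated transcript, an incomplete splice match (ISM) has a run of them, NIC joins known splice sites in an unannotated way, NNC has an unannotated splice site, and a genomic model is none of these, such as an unspliced one. Most Akr1b7 reads had the annotated 10-exon structure of Akr1b7-201, in 5616 of 6029 reads of replicate 1 and in 955 of 1386 of replicate 2. These are 93.1% (92.5% to 93.8%) and 68.9% (66.4% to 71.3%), and the share was higher in replicate 1 (adjusted p = 9.18e-114, Fisher's exact test over 3092 genes). Over these genes, 27.1% were called and 5.85% were called higher in replicate 1, as Akr1b7 was. Over all annotated genes together the known share was 76.7% in replicate 1 and 75.3% in replicate 2. The other 3 tested genes did not pass. The known share of Akr1b3 was 96.2% in replicate 1 and 93.9% in replicate 2, that of Akr1b10 93.6% and 27 of 30 reads, and that of Akr1a1 91.6% and 95.4%, with adjusted p of 0.591, 0.667 and 0.253 (exact). Akr1b8 had 94.2% in replicate 1 and 17 of 17 reads in replicate 2, too few to test.

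Among known, NIC and NNC reads, Akr1b7-201 made up 96.8% in replicate 1 and 82.8% in replicate 2 (adjusted p = 1.45e-57, Fisher's exact test over 2186 genes). Of these genes 9.52% were called and 6.27% were called higher in replicate 1. The main transcripts of Akr1b3, Akr1b10 and Akr1a1 did not pass in this test. The ISM reads of Akr1b7 were 3.70% of its reads in replicate 1 and 14.9% in replicate 2, NIC reads were 1.13% and 12.8%, NNC reads 1.92% and 1.52%, and genomic reads 0.0995% and 1.88%. ISM reads of the prefix kind, whose junctions run from the first intron, were 53 of 223 in replicate 1 and 153 of 207 in replicate 2, while those of the suffix kind, whose junctions run towards the last, were 167 of 223 and 51 of 207. Some prefix models reach the annotated 3′ end through a kept intron 9. Over all annotated genes the prefix kind made up 43.3% of ISM reads in replicate 1 and 27.5% in replicate 2, where Akr1b7 had its lower share in replicate 1.

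**Figure D3:**
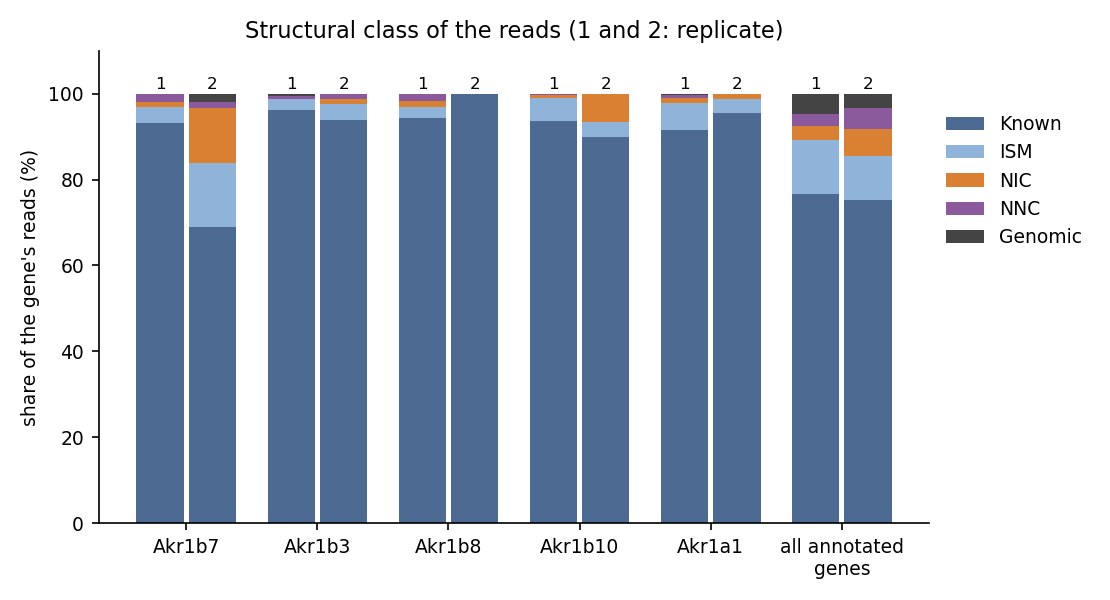
Share of each gene's reads by structural class, in percent, with replicate 1 left of replicate 2 for each gene and for all annotated genes together. The known share of Akr1b7 is 93.1% in replicate 1 and 68.9% in replicate 2, and NIC and ISM reads fill most of the gap.

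In replicate 2, the unannotated Akr1b7 reads were led by reads that kept intron 3. In replicate 1, the most read unannotated model was instead an NNC model with a shifted donor at intron 9, with 64 reads against 47 for the model that keeps intron 3 alone. Intron 3 (chr6:34416235-34417282, 1048 bases) lies between coding exons 3 and 4, and its length is not a multiple of 3. Its sequence context in the spliced transcripts is shown because this junction is the one most often left unspliced in Akr1b7; each line has the last 20 bases of exon 3 in lower case and the first 20 of exon 4 in capitals, 5′ to 3′ on the strand of the gene, from the GENCODE M21 transcripts.
Akr1b7: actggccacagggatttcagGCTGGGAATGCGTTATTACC
Akr1b10: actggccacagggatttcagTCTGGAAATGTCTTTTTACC
Akr1b8: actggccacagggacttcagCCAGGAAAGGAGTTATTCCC
Akr1b3: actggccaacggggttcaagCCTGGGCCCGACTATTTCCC
The exon 3 side is the same in Akr1b7 and Akr1b10, and both genes had reads that run from exon 3 into an unspliced intron 3. In Akr1b10 these included the 27 reads of Akr1b10-205 in replicate 1, 8.26% of its reads (5.51% to 11.8%), a transcript with 0 reads in replicate 2. That annotated transcript ends inside the intron, so its reads do not count below, where a read has to span the whole intron. In Akr1b7 the intron was kept in 90 of 5939 informative reads of replicate 1, or 1.52% (1.22% to 1.86%), and in 330 of 1316 of replicate 2, or 25.1% (22.8% to 27.5%). In Akr1b10 the whole intron was kept in 0 of 285 reads in replicate 1 and 0 of 29 in replicate 2, in Akr1b3 in 0 of 664 and 0 of 79, and in Akr1b8 in 0 of 308 and 0 of 17. At 29 and 17 reads, the exact intervals for Akr1b10 and Akr1b8 in replicate 2 reach 11.94% and 19.5%.

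The Akr1b7 introns were tested together with all introns of main transcripts that had at least 20 informative reads in each library, a comparison chosen after the models had been seen. Of 21297 introns in 2544 genes, 1.96% were called by Fisher's exact test, 1.77% kept less often and 0.193% more often in replicate 1. In Akr1b7, 8 of 9 introns were kept less often in replicate 1. These introns lie in the same reads and are not independent. Intron 3 gave an adjusted p of 2.91e-170 (exact), and its 25.1% in replicate 2 ranked 225 among the 21297 introns. Intron 6 was kept in 0.0840% of reads in replicate 1 and 8.36% in replicate 2, and intron 9 in 0.119% and 7.15%. Intron 4, the exception, was kept in 0% and 0.169% (adjusted p = 0.693, exact). Over all tested introns pooled, 0.431% were kept in replicate 1 and 0.779% in replicate 2, and the 90th percentile stood at 0.960% and 2.85%. No intron of Akr1b3, Akr1b10 or Akr1a1 was called, and those of Akr1b8 had too few reads to test. Counted on known, NIC and NNC models alone, 3 of the 9 introns of Akr1b7 were called (introns 3, 5 and 6), against 0.785% of all 18092 introns tested. Intron 3 then stood at 0.932% in replicate 1 and 14.9% in replicate 2 (adjusted p = 3.89e-86, Fisher's exact test).

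**Figure D4:**
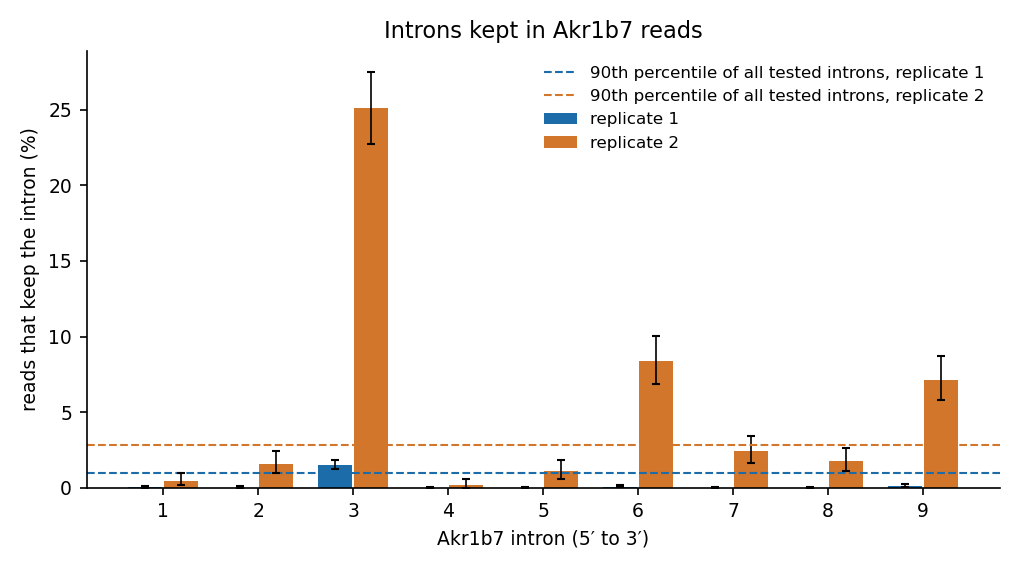
Share of informative Akr1b7 reads that keep each of its 9 introns, in percent, with replicate 1 left of replicate 2, exact 95% binomial intervals, and dashed lines at the 90th percentile of all tested introns of each library. Intron 3 stands at 1.52% in replicate 1 and 25.1% in replicate 2, and introns 6 and 9 come next.

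In all, reads with any kept intron numbered 102 of the Akr1b7 reads in replicate 1 (1.69%) and 404 in replicate 2 (29.1%). On the CPM scale they were lower in replicate 1, at 120.2 CPM (98.0 to 146) against 741 CPM (670.5 to 817) in replicate 2, while annotated Akr1b7 transcripts were higher, at 6617 CPM (6445 to 6792) in replicate 1 against 1752 CPM (1642 to 1866) in replicate 2. The single most read intron-keeping structure was a 9-exon NIC model of 2329 bases that is annotated in all but intron 3, with 47 reads in replicate 1 and 131 in replicate 2. An ISM model that keeps intron 3 and ends inside intron 4 had 11 reads in replicate 1 and 108 in replicate 2. Its recorded end is at position 34417770 of chromosome 6 in replicate 1 and at 34418649 in replicate 2, and 17 Akr1b7 reads in replicate 1 and 134 in replicate 2 belonged to models that end inside intron 4. A recorded end belongs to the model, so single reads may stop elsewhere. A model that keeps introns 3 and 6 had 2 reads in replicate 1 and 26 in replicate 2, and an unspliced model across introns 6 to 9 had 0 and 22.

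Model length moves with these structures. Models over 2000 bases held 1.43% of the Akr1b7 reads in replicate 1 and 28.7% in replicate 2. The log2 ratio of the 2329-base model was -2.10, a difference of -4.01 from the 1.92 of the annotated transcript. The running median of all tested genes at these lengths differed in the same direction, by -3.29, with -0.91 at 2329 bases and 2.39 at 1281 bases. For the model that keeps introns 3 and 6, of 2733 bases, the difference from the annotated transcript was -5.78 and that of the running median -3.84. In these 2 models, the running median moved the same way as Akr1b7 and by less. The part of length in the intron result was not tested. A structure that keeps intron 3 and starts at exon 3, read 23 times in replicate 1 and 5 times in replicate 2, had 27.1 CPM in replicate 1 and 9.17 CPM in replicate 2. It has 2019 bases, and differed from the annotated transcript by -0.45 where the running median differed by -2.81, so here the running median moved by more.

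**Figure D5:**
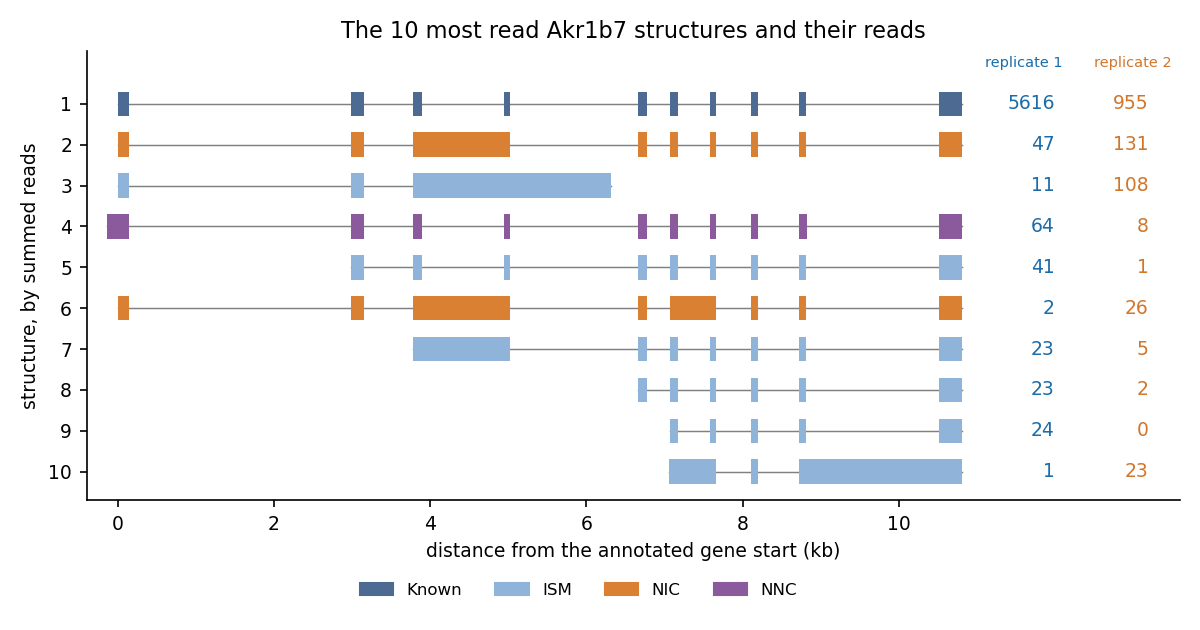
The 10 most read Akr1b7 structures, drawn to scale by distance in kb from the annotated gene start, with exon blocks colored by class and the reads of replicate 1 and replicate 2 at the right. Each is drawn with the ends it has in the library with more reads, and structures 2, 3 and 6, with 47, 11 and 2 reads in replicate 1 and 131, 108 and 26 in replicate 2, show the long block where intron 3 is kept, as does structure 7, which starts at exon 3.

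At the last intron of Akr1b7, reads used 3 unannotated donor sites close to the annotated one in both libraries. The annotated donor, after exon 9 ends at position 34421145 of chromosome 6, took 5867 of 5957 reads in replicate 1 (98.5%) and 1142 of 1157 in replicate 2 (98.7%). A donor 14 bases downstream took 69 reads in replicate 1 (1.16%, 0.902% to 1.46%) and 8 in replicate 2 (0.691%, 0.299% to 1.36%), with overlapping intervals. Donors 4 and 7 bases downstream took 11 and 9 reads in replicate 1 and 5 and 2 reads in replicate 2. All 3 shifts change the reading frame. The main model with the shift of 14 bases had 64 reads in replicate 1 and 8 in replicate 2. Its recorded start in replicate 1 is at position 34412197, before the annotated start and inside the upstream window of Akr1b7 shown above. A recorded start belongs to the model, so single reads may begin elsewhere.

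Akr1b10 had the most annotated transcripts in use, with 4 in replicate 1. Akr1b10-201, the full coding transcript, had 270 of 327 reads in replicate 1 and 27 of 30 in replicate 2. In replicate 1, 27 reads (8.26%) were Akr1b10-205, annotated as a retained-intron transcript that ends inside intron 3, and 6 were Akr1b10-203, annotated for nonsense-mediated decay. Another coding transcript with a shifted exon 2 start had 3 reads. These 3 transcripts had 0 reads in replicate 2, where 30 reads in all cannot show a share of this size with certainty. Akr1b3-201 had 654 of 681 reads in replicate 1 and 76 of 82 in replicate 2, and an annotated retained-intron transcript had 1 read in each. Akr1b8-201 had 294 of 312 reads and 17 of 17. Akr1a1-201 had 1040 of 1135 reads in replicate 1 and 145 of 153 in replicate 2. Its most read unannotated form, which lacks exon 1, had 41 reads in replicate 1 and 4 in replicate 2. Forms of Akr1a1 that skip exon 3 or exon 2 had 6 and 2 reads in replicate 1 and 1 and 1 in replicate 2.

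Unannotated splice junctions were rare in all 5 genes, at 0.0664% to 0.266% of junction reads per gene in replicate 1 and 0% to 0.234% in replicate 2. Akr1b7 had 43 unannotated junctions, of which 5 were read in both libraries and 28 rested on a single read. Of its unannotated spliced structures, 21 were found in both libraries, 30.9% of the 68 in replicate 1 and 47.7% of the 44 in replicate 2. Akr1a1 had 4 in both libraries (of 19 in replicate 1 and 4 in replicate 2) and Akr1b3 had 2 (of 10 and 5). Akr1b10 had 1 (of 10 and 3) and Akr1b8 had 0 (of 11 and 0). These junctions and structures were not counted over all genes, so whether the 5 genes differ from other genes was not tested.

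A few reads joined exons of neighbouring Akr1b genes. There were 4 such reads in replicate 1 and 2 in replicate 2, in 5 models, and the 6 junctions, each counted once per model, all ran from an exon of an upstream gene to the next exon in number of a downstream gene. Akr1b8 exon 1 was joined to Akr1b7 exon 2 in 2 reads of replicate 1, across 61.023 kb, and to Akr1b10 exon 2 in 1 read of each library, across 33.375 kb. Akr1b8 exon 2 was joined to Akr1b7 exon 3 in 1 read of replicate 1, and Akr1b10 exon 2 to Akr1b7 exon 3 in 2 reads of replicate 2, one of which began with Akr1b8 exon 1 and so holds a pair of joins. The junctions are shown because the genes are nearly the same there; the last 20 bases of the upstream exon are in lower case and the first 20 of the downstream exon in capitals, from GENCODE M21.
Akr1b7 exon 1 to Akr1b7 exon 2: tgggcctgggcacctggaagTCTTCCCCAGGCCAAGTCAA
Akr1b8 exon 1 to Akr1b7 exon 2: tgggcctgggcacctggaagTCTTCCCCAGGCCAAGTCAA
Akr1b8 exon 1 to Akr1b8 exon 2: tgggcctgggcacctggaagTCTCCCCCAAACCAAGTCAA
Akr1b8 exon 1 to Akr1b10 exon 2: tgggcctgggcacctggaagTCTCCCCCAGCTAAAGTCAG
Akr1b10 exon 2 to Akr1b7 exon 3: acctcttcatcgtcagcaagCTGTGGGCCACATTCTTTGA
Akr1b8 exon 2 to Akr1b7 exon 3: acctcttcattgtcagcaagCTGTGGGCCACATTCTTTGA
Within this window the Akr1b8 exon 1 to Akr1b7 exon 2 sequence is the same as the Akr1b7 exon 1 to exon 2 junction. The last 23 bases of exon 1 are identical between Akr1b8 and Akr1b7, and the last 37 between Akr1b8 and Akr1b10. At the end of exon 2 the identical runs are shorter than the 20 bases shown. They are 9 bases between Akr1b8 and Akr1b7 and 18 between Akr1b10 and Akr1b7. Over the 66 coding bases of exon 1, 64 are the same in Akr1b8 and Akr1b7. Over the 168 bases of exon 2, 148 are the same in Akr1b8 and Akr1b7 and 151 in Akr1b10 and Akr1b7. With 6 reads in all and such similar exons, the joins were described and not tested.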

How the data were processed

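Adrenal tissue of C57BL/6J mice was sequenced with long reads as 2 libraries of 1 group. The authors deposited, per library, whole read counts per transcript model and the structure of each model, on mm10 with GENCODE M21, per the text deposited with each library. New models are credited to TALON in the deposited annotation. No source used here gives the platform or the aligner. Counts were not normalized, and replicates were not pooled. Counts of models assigned to an annotated gene were summed per gene and scaled to the library's total (848782 and 545229 reads) to give CPM. The length of a gene is that of its most read known transcript. With 1 library on each side edgeR's quasi-likelihood test could not be fitted, so two-sided Fisher's exact tests with Benjamini-Hochberg adjustment at 0.05 were used, over genes with at least 10 reads (gene reads) or at least 20 reads in each library (shares and introns). An intron was kept where an exon of the model spans it with a base on either side, and spliced where the model has it as an intron. Intervals (95%, Clopper-Pearson for shares and Poisson for CPM) and the floor of 3 counts cover counting error only, since reads are not shown to be independent molecules. Alternatives were TMM (edgeR 4.0.16) and DESeq2 (1.42.0) scaling in R 4.3.3 and removal of a running median over genes ordered by length, each with an exact binomial test, other filters, and other sets of models. Log2 ratios are of CPM + 1, a scale on which low genes differ by too little. Python 3.11.15, scipy 1.17.1 and biopython 1.88 (global alignment of coding sequences) served for the rest. The tests were checked on simulated data. The genes and lists were chosen with earlier results of these data known. Genes named were the 5 genes, their known transcripts, unannotated models read in both libraries or at least 5 times in 1 library, members of the lists that were called or most read, and the 3 nearest genes by level; models, junctions and joined reads outside this rule were chosen after their values were seen. RefSeq promoter sequences matched 4 of the 5 genes by symbol.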

Additional observations from a re-analysis of the deposited data

Results flagged for a closer look

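Unannotated reads on the strand opposite to Akr1b7 numbered 4 in replicate 1 and 3 in replicate 2, against 6029 and 1386 reads on its own strand. The 4 reads of replicate 1 lie above the floor of 3 counts, the limit used for flagging. Whether reads above this limit differ from misassigned reads was not tested. On the strand opposite to Akr1a1 there were 6 reads in replicate 1, above that limit, and 2 in replicate 2. Akr1b10 had 2 such reads in replicate 1 and 1 in replicate 2, and Akr1b3 and Akr1b8 had 0 in both. Gm6644, a pseudogene on chromosome 1 that RefSeq lists under an Akr1b3 synonym, had 5 reads in replicate 1 and 4 in replicate 2, also above the limit, where Akr1b3 itself had 681 and 82. Its values come with 9 reads in all, and reads shared with Akr1b3 were not separated further.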

How the results depend on the processing

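The higher reads of all 5 genes in replicate 1 kept their direction and passed under TMM scaling, DESeq2 size factors, no filter and known models only. TMM and DESeq2 scaling raised every log2 ratio by 0.43 and 0.45 and moved the share of called genes that were higher in replicate 1 to 55.0% and 55.2%, from 43.2% on total reads. With the length trend removed, 3783 of 9166 tested genes (41.3%) were called, in place of 6363 of 9879 (64.4%). Genes with no known transcript have no length here and were left out. Of the calls, 1828 were lower in place of 3611, and Akr1b7 reversed to -0.89. Known models only with the trend removed was an alternative chosen after seeing the data. In it, 2799 of 7302 tested genes (38.3%) were called, 1541 higher and 1258 lower. Akr1b7 (-0.96), Akr1b3 (-0.089) and Akr1a1 (-0.23) reversed, of which only Akr1b7 passed. Counting ISM with known models left 415 genes called for the known share in place of 838, Akr1b7 among them. Counting introns on known, NIC and NNC models only was also chosen after seeing the data. It left 142 of 18092 introns called (0.785%) in place of 418 of 21297 (1.96%), with fewer reads and introns tested. The cause of the other changes was not tested. Without replicate 1 or without replicate 2, the level of Akr1b7 was 2542 to 7103 CPM, of Akr1b3 150.4 to 802 CPM, of Akr1b8 31.2 to 368 CPM, of Akr1b10 55.02 to 385 CPM and of Akr1a1 281 to 1337 CPM. No paired analysis was possible because there is 1 group. The 17 reads of Akr1b8 and 30 of Akr1b10 in replicate 2 limit what their shares can show.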
